A study of Homo sapiens with 12 samples.

Results

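Manassantin was set against digoxin, array by array, in MDA-MB-231 cells, an established human line of triple-negative breast cancer. The comparison takes the 3 arrays of manassantin-treated and the 3 of digoxin-treated cells, 6 of the 12 arrays in the series, and leaves the vehicle and rotenone arrays out of the test. It covers 11963 genes, each represented by the brightest of its probe sets that carry exactly 1 gene symbol. The cells of every group were grown in full DMEM with serum and antibiotics and were exposed to a compound or to the vehicle DMSO for 24 h. By the labels the groups compared differ in the compound, either manassantin, which the series' design text calls manassantin A, or digoxin. The sample titles say digoxin where the design text says digitoxin, a close relative, so which of these glycosides the cells received is open, and the titles' name is used here. The time of exposure was the same in both groups. The sources used here give neither doses nor an oxygen level, so a difference between the compounds and a difference between their doses cannot be told apart. Whether the 3 arrays of a group stem from separate cultures is not stated in the labels. P-values therefore cover just the spread among these samples, and that spread may be technical.

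Digoxin is a foxglove glycoside that blocks the sodium pump, the ATPase that exports sodium and imports potassium, so that sodium builds up in the cell and calcium and potassium shift with it. In human cells cardiac glycosides are also known to slow protein synthesis and to induce immediate early genes, which are transcribed within minutes of a stimulus without new protein. Manassantin is a plant lignan that has been described as an inhibitor of hypoxia-inducible factor (HIF), the transcription factor of low oxygen, and of mitochondrial complex I. The study's title ties it to Hsp90, a chaperone of many signalling proteins, and to chaperone-mediated autophagy, in which the chaperone HSPA8 delivers single proteins to the lysosomal receptor LAMP2A.

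Each value below is a deposited log2 expression value, and a difference is the manassantin mean minus the digoxin mean, so that a negative number means a higher level with digoxin. A difference of 1 on this scale is 2-fold. Differences carry the standard error (SE) of the limma fit, group means carry the standard deviation (SD, n = 3 arrays), and a gene is called where its adjusted p lies under 0.05. Genes whose mean over the 6 arrays was below the 40th percentile, 5.72, are called dim. Levels of different genes are not compared, since each probe set has its own brightness.

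VIM, CD44, AXL, CAV1 and LGALS1, genes that MDA-MB-231 expresses strongly, stood between the 97.5 and 99.7 percentile of all genes. Of the 3 receptor genes that define triple-negative tumours by their low protein, PGR stood at the 2.3, ESR1 at the 46.6 and ERBB2 at the 66.2 percentile, so ERBB2 was not dim, nor were the luminal markers GATA3 (69.8) and EPCAM (65.8). Leukocyte and endothelial markers were all dim on these arrays (4 of 4 measured in each list), with mean levels of 4.37 to 4.47 with manassantin and 4.36 to 4.63 with digoxin for the first list and 4.08 to 4.33 and 4.26 to 4.40 for the second, and 4 of 5 fibroblast markers were dim too. Arrays of a group correlated with each other across genes at 0.997 to 0.998, and arrays of different groups at 0.974 to 0.980. The median of an array over all 22277 probe sets lay between 5.976 and 5.995 with manassantin and between 5.881 and 5.911 with digoxin. The control probe sets for GAPDH (3' minus 5' difference 0.0117 apart, exact permutation p = 0.7) and ACTB (0.0496 apart, p = 0.8) did not separate the groups, and neither did 18S rRNA (-0.251, p = 0.5). With 3 arrays against 3 the smallest two-sided p of this test is 0.1, which the 3' minus 5' difference of the spike-in phe reached (0.0445 ± 0.0922, SD, with manassantin against -0.168 ± 0.0364 with digoxin). With the 18S control as a covariate in the fit, 5199 genes were called in place of 6004. The part of the other control differences in the results was not tested.

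The 2 compounds left the cells with clearly separate expression profiles. EGR1, CXCL8, IL11, HAS2 and IL6, a set of immediate early, cytokine and matrix genes, stood furthest above on the digoxin side, at 14.4-fold for EGR1. The metabolic enzyme IDH1 stood furthest above on the manassantin side, at 12.3-fold, followed by KRCC1, SH3TC2, SLCO4A1 and PNMA8A. Of 11963 genes, 6004 (50.2%) were called by limma, 3100 (25.9%) higher with manassantin and 2904 (24.3%) higher with digoxin. The larger differences lay more on the manassantin side: 602 called genes (5.03%) were at least 2-fold higher with manassantin and 172 (1.44%) at least 2-fold higher with digoxin, and beyond 4-fold there were 46 and 22. The median size of a called difference was 0.53 for genes higher with manassantin and 0.38 for genes higher with digoxin, against a median SE of 0.077. In 7145 genes (59.7%) the 3 arrays of one group did not overlap those of the other. The split between directions depends on where the arrays are centred. Centring subtracted from each array the median of its 11963 gene values, which is not the probe set median given above. It moved the median of all genes by -0.22, from -0.06 to -0.27, and so further from 0. It left 2001 genes higher with manassantin and 6896 higher with digoxin, and made the counts beyond 2-fold nearly equal, at 352 and 345. List medians are therefore read against the median of all genes, -0.06, and where centring turns a list's sign this is said. The called counts of a list are likewise read against the shares of all genes, 50.2% in all and 25.9% and 24.3% by direction. List values on centred arrays have another background, the median of -0.27 and the counts 2001 and 6896 of 11963 genes. A centred list median between -0.27 and 0 therefore still lies above that of all genes.

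**Figure D1:**
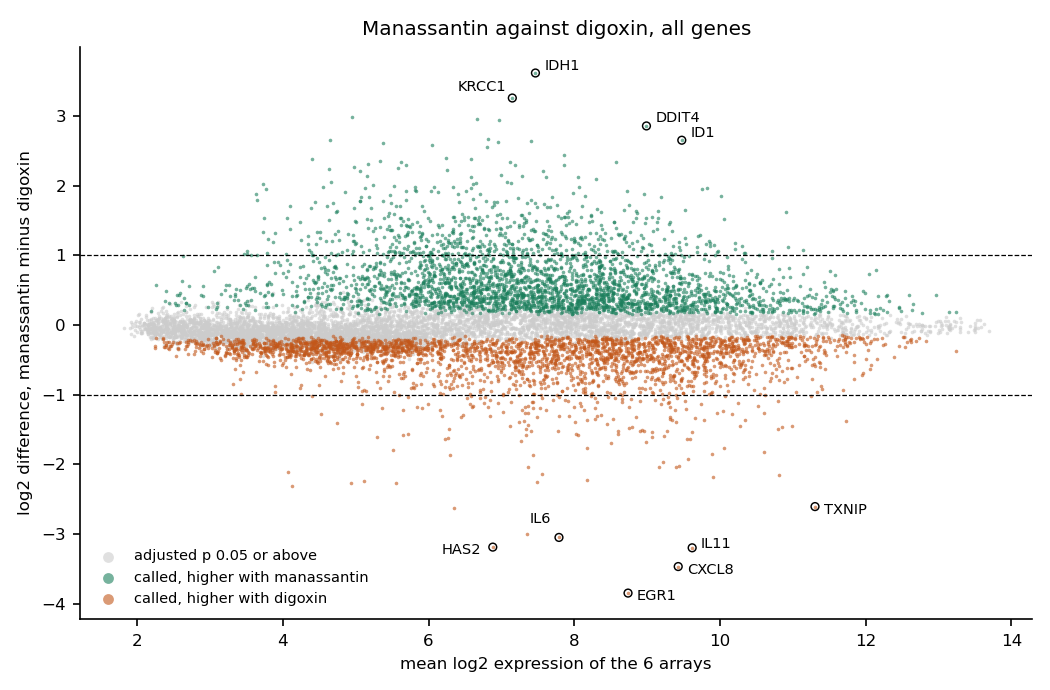
Difference of each of the 11963 genes (vertical axis, log2, manassantin minus digoxin) against its mean log2 expression on the 6 arrays (horizontal axis); green and orange points are called genes, grey points are not, and dashed lines mark 2-fold. IDH1 at 3.62 and EGR1 at -3.85 are the extremes, and more green than orange points lie beyond the dashed lines (602 against 172).

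Set beside the vehicle arrays, which took no part in the test, most of the gap lay with digoxin. Among the 6004 called genes the manassantin mean was nearer to the DMSO mean in 5573 (92.8%; 80.3% of all genes), and this held for all 774 genes past 2-fold. The median distance of a called gene from its DMSO mean was 0.078 with manassantin and 0.42 with digoxin. The values that follow are therefore given with the DMSO level where it helps to place them, as a description without a test.

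The 15 genes furthest above with digoxin were led by EGR1, a zinc-finger transcription factor of the immediate early class. EGR1 read 6.85, 7.07 and 6.53 on the manassantin arrays and 10.91, 10.36 and 10.73 on the digoxin arrays, beside a DMSO mean of 6.86. The digoxin arrays were all above the manassantin arrays by over 3 log2 units, and the fitted difference was -3.85 ± 0.17 (SE; adjusted p = 2.87e-06, limma). CXCL8, a chemokine that attracts neutrophils, read 7.62, 7.79 and 7.67 against 10.99, 11.15 and 11.34 (-3.47 ± 0.097). IL11, a cytokine of the IL-6 family, read 7.71, 8.23 and 8.11 against 11.07, 11.25 and 11.33 (-3.20 ± 0.14). HAS2, which makes hyaluronan for the matrix around the cell, read 5.17, 5.18 and 5.51 against 8.40, 8.38 and 8.65 (-3.19 ± 0.12). The DMSO mean was 7.48 for CXCL8 and 8.01 for IL11, near the manassantin arrays. For HAS2 it was 5.65, with the manassantin mean -0.37 and the digoxin mean 2.82 from it. IL6 itself, the cytokine that drives the acute phase response, read 6.25, 6.47 and 6.08 with manassantin and 9.22, 9.41 and 9.31 with digoxin, an 8.28-fold difference. ABL2, a tyrosine kinase that acts on actin, differed by -3.01 ± 0.076, IL24, another secreted cytokine, by -2.63 ± 0.12, and the nuclear pore gene NUP58 by -2.23. PPP1R15A, which directs a phosphatase to eIF2 and so restores translation after stress, differed by -2.18 ± 0.089. DIAPH3, STXBP6, H2BC21 and FOS were dim, with digoxin means of 5.28, 6.07, 6.69 and 6.24. Their differences, between -2.31 and -2.24, therefore start from manassantin levels near the low end of the arrays.

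On the manassantin side IDH1 led. This gene encodes the cytosolic isocitrate dehydrogenase, which yields NADPH and 2-oxoglutarate. IDH1 read 9.34, 9.22 and 9.27 with manassantin and 6.04, 5.46 and 5.47 with digoxin, with DMSO at 9.10. The digoxin arrays were the low ones, by 3.62 ± 0.15 (SE; adjusted p = 2.05e-06, limma), and digoxin replicate 1 was the least low. KRCC1, a gene of little known function, read 8.96, 8.64 and 8.74 against 6.01, 5.23 and 5.32, with the same digoxin array highest of its group. DDIT4, also known as REDD1, an inhibitor of the growth kinase mTORC1 that is induced by hypoxia and stress, read 10.52, 10.36 and 10.38 against 7.88, 7.45 and 7.36 (2.86 ± 0.13). ID1, a partner that blocks basic helix-loop-helix transcription factors, read 10.85, 10.79 and 10.77 against 8.23, 8.12 and 8.10 (2.65 ± 0.063). CRYZ, a quinone oxidoreductase, differed by 2.64, the organic anion transporter gene SLCO4A1 by 2.95, the phospholipid flippase gene ATP10D by 2.66, the RNA 3' end processing factor CSTF3 by 2.44 and the interferon-inducible helicase gene DDX60 by 2.59. PNMA8A (2.94), ZNF512B (2.63) and the lipid phosphatase gene MTMR4 (2.55) completed the brighter members. SH3TC2 (2.99), NXPE3 (2.65) and PPP1R3D (2.62) were dim. In all 30 of these genes the arrays of the groups did not overlap, but they were chosen for the size of this difference, so that this is a description.

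**Figure D2:**
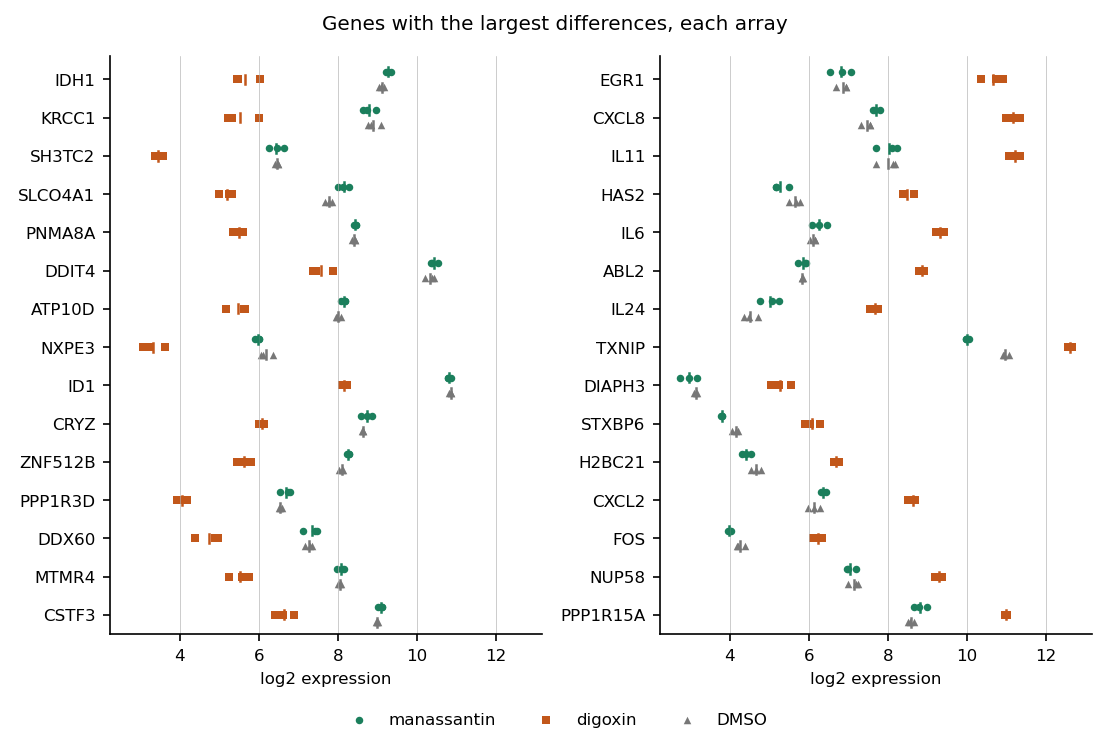
Log2 expression (horizontal axes) of the 15 genes furthest above with manassantin (left) and with digoxin (right); each point is 1 array, the short bars are group means, and the grey DMSO arrays are shown for reference. In most rows the manassantin and DMSO points lie together and the digoxin points stand apart; in the row of TXNIP, manassantin (mean 10.0) and digoxin (mean 12.61) lie well to either side of DMSO (mean 10.97).

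Immediate early genes stood higher with digoxin as a group. Of 43 measured, 32 were called higher with digoxin and 7 higher with manassantin, so that 90.7% were called against 50.2% of all genes, with a median difference of -0.46. Besides EGR1 and FOS the largest were SGK1, a kinase that regulates sodium transport (-1.97), the small MAF factor MAFF (-1.82), the orphan nuclear receptor NR4A2 (-1.63) and the MAP kinase phosphatase DUSP1 (-1.61). SGK1 read 8.25, 8.21 and 8.24 with manassantin and 10.30, 10.12 and 10.19 with digoxin, and DUSP1 read 8.05, 8.50 and 8.26 against 9.73, 9.97 and 9.93. Neither gene had overlapping groups. MYC, the growth transcription factor, differed far less, by -0.26 ± 0.057 (adjusted p = 0.00666, limma), with 10.10, 10.02 and 10.0 against 10.33, 10.27 and 10.30. The group was thus not uniform, and its 7 members on the manassantin side reached 1.51. The promoter of EGR1 is shown because its serum response elements are a textbook case of immediate early control: the 130 bases before its start on GRCh38.p14, chr5:138465349-138465478 on the + strand, hold the SRF-binding CArG box 2 times, capitals marking the match, with first bases 105 and 83 before the start.

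EGR1: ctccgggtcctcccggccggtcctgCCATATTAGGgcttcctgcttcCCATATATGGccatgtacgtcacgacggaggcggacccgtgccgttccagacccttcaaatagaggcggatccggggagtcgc

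The CArG box was searched on both strands of the 300 bases around each start in RefSeq's promoter table, 250 before it and 50 after. It was present in 2 of the 45 promoters found for 33 of the 43 immediate early genes (4.44%) and in 1.29% of all 35116 promoters. The window of FOS held no CArG box. The cyclic AMP response element TGACGTCA was present in 5 of those 45 (11.1%) against 1.85% of all. A match is a run of letters and does not show that a factor was bound.

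Cytokine and NF-kB genes had the most negative median of the 39 lists. NF-kB is the transcription factor of inflammatory signalling, which induces chemokines, cytokines and its own inhibitors. Of 36 measured, 25 were called higher with digoxin and 3 higher with manassantin (77.8% called), with a median of -0.68 and 9 members at least 2-fold higher with digoxin. After CXCL8, IL11, IL6 and IL24 came the chemokines CXCL2, which read 6.44, 6.36 and 6.30 against 8.51, 8.68 and 8.69, and CXCL1, which read 6.34, 6.42 and 6.28 against 8.18, 8.39 and 8.57. Both chemokines were low with manassantin on every array, near their DMSO means of 6.14 and 6.19. CXCL1 and CXCL2 are close paralogs, and how far their probe sets share signal is not known here. The promoter stretches of CXCL2, CXCL1, IL6 and IL11 are shown because each holds a match to a site searched. CXCL8 and IL24 moved the same way and are not shown. The stretches are chr4:74099196-74099325 on the - strand, chr4:73869263-73869392 on the + strand, chr7:22727070-22727199 on the + strand and chr19:55370464-55370593 on the - strand, each the 130 bases before the start. Capitals mark the NF-kB site in the first 3 and the AP-1 site TGANTCA in IL11.

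CXCL2: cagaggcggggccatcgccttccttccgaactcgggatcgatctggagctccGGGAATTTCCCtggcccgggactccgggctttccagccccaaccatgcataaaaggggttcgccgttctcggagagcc

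CXCL1: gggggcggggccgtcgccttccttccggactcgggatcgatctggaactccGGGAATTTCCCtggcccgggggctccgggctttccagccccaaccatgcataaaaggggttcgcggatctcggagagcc

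IL6: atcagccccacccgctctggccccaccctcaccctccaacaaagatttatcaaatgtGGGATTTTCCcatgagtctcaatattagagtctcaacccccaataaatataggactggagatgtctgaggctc

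IL11: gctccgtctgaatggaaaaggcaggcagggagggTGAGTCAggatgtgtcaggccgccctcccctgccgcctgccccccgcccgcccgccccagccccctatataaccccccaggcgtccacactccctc

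The CXCL1 and CXCL2 stretches were identical at 121 of 131 aligned positions (92.4%), and their NF-kB match begins 79 and 78 bases before the start. In both, the site was found on both strands, shifted by 1 base, so the capitals cover an overlapping pair of matches. IL6 had its NF-kB match 73 bases before the start, and IL11 had the AP-1 letters, which read the same on both strands when the middle base is free, 96 bases before it. By the same search as above, an NF-kB site was present in 16 of 40 promoters of 29 list genes (40%) against 11.3% of all promoters, and TGANTCA in 6 of 40 (15%) against 7.71%. The windows of CXCL8, IL11 and IL24 held no NF-kB match in the letters searched. Those letters were GGG, A or G, any base, any base, C or T, C or T, and CC. The window of IL24 held no AP-1 match either, while that of CXCL8 held 1. The list is made of genes known as NF-kB targets, so the share describes the list and not this experiment.

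Interferon-stimulated genes went the opposite way. These genes encode antiviral sensors and effectors and are switched on by the factor ISGF3 at the interferon-stimulated response element. Of 40 measured, 30 were called higher with manassantin and 2 higher with digoxin (80% called), with a median of 0.67 (on centred arrays 25 and 6, median 0.46), and 14 members were at least 2-fold higher with manassantin. DDX60, a helicase that acts with the RNA sensor RIG-I, read 7.48, 7.11 and 7.43 with manassantin and 4.98, 4.38 and 4.89 with digoxin. IFIT1, which binds foreign RNA ends, read 9.83, 9.66 and 9.74 against 7.59, 7.25 and 7.39. IFIT3, its partner, read 8.77, 8.52 and 8.56 against 6.87, 6.74 and 6.72. In all 3 genes the lowest manassantin array was above the highest digoxin array, and the DMSO means, 7.28, 9.88 and 8.69, were close to manassantin. HERC6 differed by 2.22, IFIT5 by 1.43 and TRIM22, which was dim, by 1.70. The list's median distance from DMSO was -0.58 with digoxin and 0.07 with manassantin. The promoter stretches of IFIT1 and DDX60 are shown because their response elements lie within the 130 bases before the start: chr10:89392493-89392622 on the + strand and chr4:168318753-168318882 on the - strand. Capitals mark the element, searched as TTTC, any 2 bases and TTTC again, or its reverse complement.

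IFIT1: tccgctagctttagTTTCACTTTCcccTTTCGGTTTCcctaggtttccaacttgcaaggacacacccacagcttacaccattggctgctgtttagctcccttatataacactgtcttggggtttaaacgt

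DDX60: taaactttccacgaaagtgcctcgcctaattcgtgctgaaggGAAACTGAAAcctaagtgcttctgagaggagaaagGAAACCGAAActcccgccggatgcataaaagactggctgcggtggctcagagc

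The matches of IFIT1 begin 116 and 103 bases before the start, and those of DDX60, which lie on the other strand, 88 and 53 bases before it. These letters were present in 27 of 44 promoters of 32 list genes (61.4%) and in 3.57% of all promoters. They were not present in the window of HERC6, although that gene had one of the largest differences of the list.

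**Figure D3:**
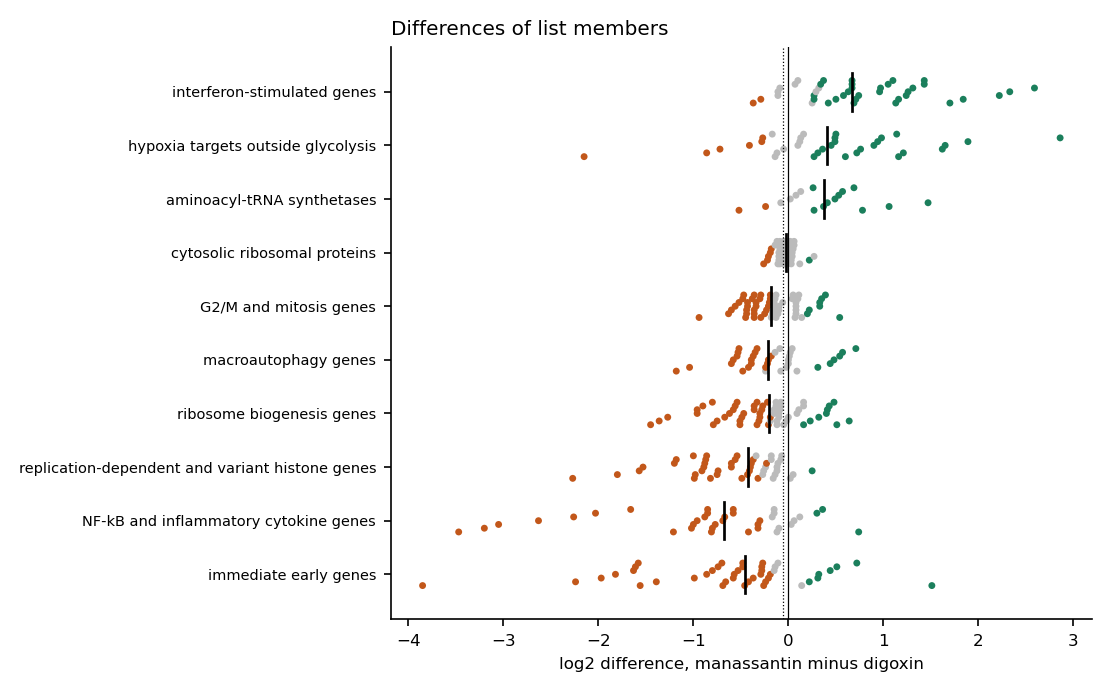
Differences (horizontal axis, log2, manassantin minus digoxin) of the measured members of 10 gene lists; each point is a gene, green or orange where called and grey where not, black bars are list medians, and the dotted line is the median of all genes. The medians run from -0.68 for NF-kB and cytokine genes to 0.67 for interferon-stimulated genes, and cytosolic ribosomal proteins lie close to 0.

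The pump subunits measured here differed by less than the median called gene on the digoxin side. ATP1B1 and ATP1B3, the beta subunits that carry the sodium pump to the membrane, differed by -0.31 ± 0.058 and -0.36 ± 0.061, both higher with digoxin. ATP1B1 read 11.26, 11.16 and 11.20 against 11.56, 11.51 and 11.49, and ATP1B3 read 10.44, 10.40 and 10.36 against 10.70, 10.83 and 10.75, without overlap in either. FXYD5, a pump modulator, differed by 0.0 (95% interval -0.14 to 0.15) and was not called. Centring the arrays on their medians turned this into -0.21, which was called (adjusted p = 0.0185, limma). Genes of ion balance around the pump moved further: the inositol carrier SLC5A3 was 2.82-fold higher with manassantin and the epithelial sodium channel subunit SCNN1A 2.31-fold higher with manassantin, while the amino acid carrier SLC38A2 (-0.97), the kinase SIK1 (-0.92) and the taurine carrier SLC6A6 (-1.22, dim) were higher with digoxin. Of 23 measured genes of this list, 10 were called higher with digoxin and 2 higher with manassantin, with a median of -0.17. That made 52.2% called, beside 50.2% of all genes. On centred arrays 20 were called in place of 12.

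**Figure D4:**
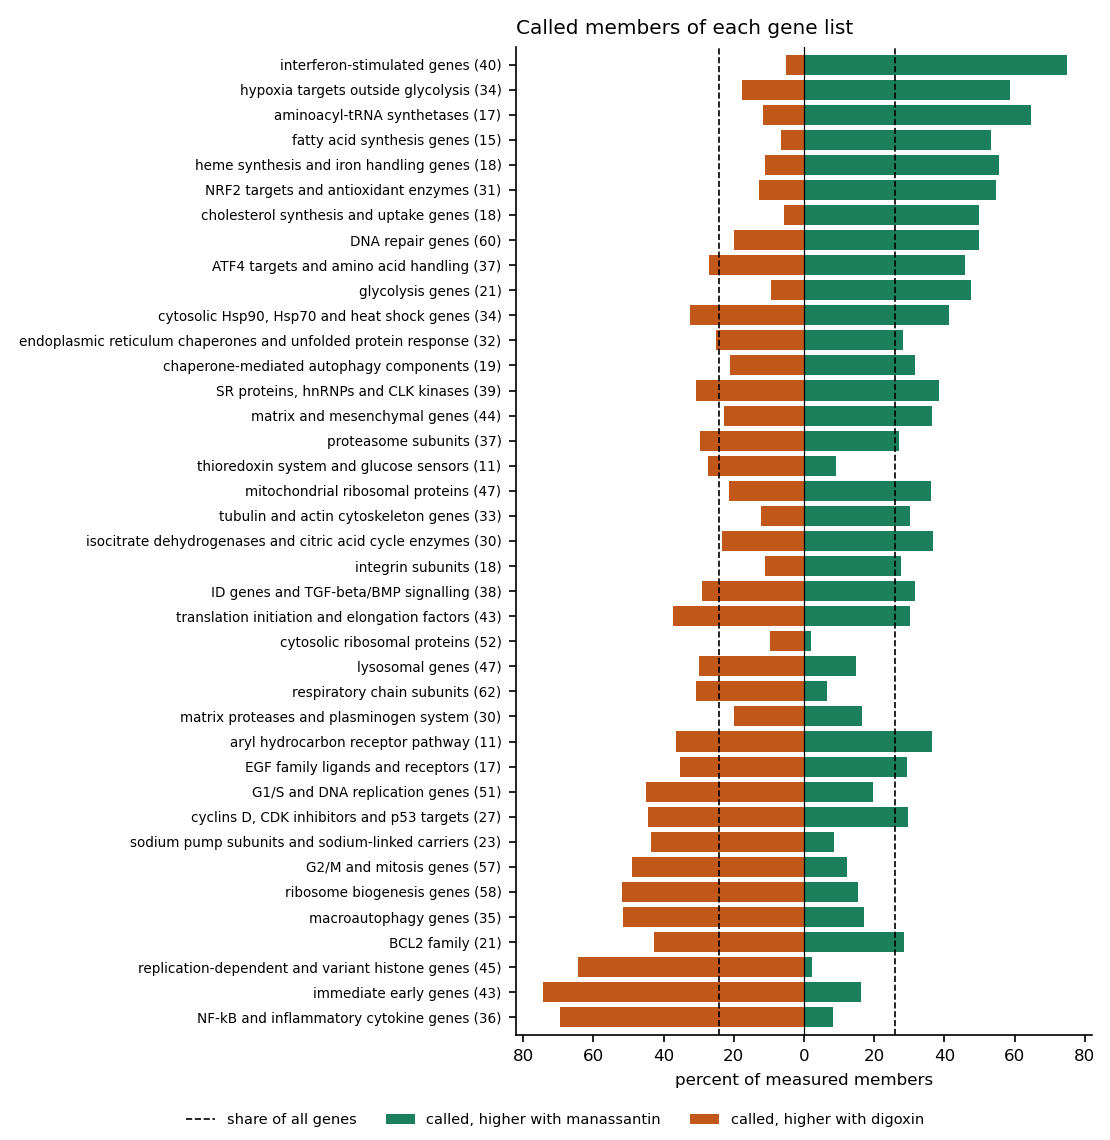
Share of the measured members (number in brackets) of 39 gene lists that were called higher with manassantin (green, to the right) or with digoxin (orange, to the left); dashed lines are the shares over all genes, 25.9% and 24.3%, and lists are ordered by median difference. Interferon-stimulated genes head the list and NF-kB, immediate early and histone genes close it.

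Hypoxia targets outside glycolysis stood mostly higher with manassantin. Of 34 measured, 20 were called higher with manassantin and 6 higher with digoxin, with a median of 0.40. On centred arrays the counts were 16 and 10. The list's median distance from DMSO was 0.14 with manassantin and -0.25 with digoxin, so the larger part lay below DMSO on the digoxin side. DDIT4 led, and MXI1, an antagonist of MYC, read 9.14, 8.80 and 8.86 against 7.22, 6.88 and 7.02. NDRG1, a stress-induced differentiation gene, read 10.51, 10.24 and 10.28 against 8.76, 8.67 and 8.66, and BNIP3, a receptor for the removal of mitochondria, read 11.70, 11.65 and 11.77 against 10.15, 10.01 and 10.10. All 3 were low on every digoxin array. The carbonic anhydrase gene CA12 was 2.31-fold higher with manassantin. ADM, which encodes the vasodilator adrenomedullin and is a hypoxia target too, ran against the list and was 4.43-fold higher with digoxin, at 9.58, 9.83 and 9.82 against 11.82, 11.90 and 11.95. VEGFA, the angiogenic growth factor, read 10.27, 10.12 and 10.18 against 9.82, 9.62 and 9.65, a difference of 0.49 ± 0.075 (adjusted p = 0.000955, limma). Its DMSO mean was 9.87, with the manassantin mean 0.32 and the digoxin mean -0.17 from it, so here manassantin lay further from DMSO. Of its 3 other probe sets, 1 was called in the same direction and 0 in the opposite one. The HIF subunits themselves split: HIF1A was higher with manassantin by 0.31 ± 0.066, a call that was lost on centring the arrays (0.10, adjusted p = 0.205), and EPAS1, which encodes HIF-2 alpha, was higher with digoxin (-0.86 ± 0.087). CA9 was not analysed here.

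Glycolysis genes differed by less. Of 21 measured, 10 were called higher with manassantin and 2 higher with digoxin (57.1% called, beside 50.2% of all genes). The median of 0.16 turned to -0.06 when the arrays were centred on their medians, with 3 and 5 called. The centred median of all genes was -0.27. HK2, the first enzyme of the pathway in many tumours, read 9.99, 9.88 and 9.98 with manassantin and 8.98, 9.05 and 9.08 with digoxin. ENO2 (0.70), PGK1 (0.41), PFKM (0.34) and PKM (0.33) were also called higher with manassantin, the last 2 not after centring (0.13 and 0.12). The glucose carrier gene SLC2A1 was higher with digoxin by a small margin (-0.18 ± 0.064, adjusted p = 0.0476, limma), a call that was lost on leaving out manassantin replicate 1 (-0.13, adjusted p = 0.146) or any other array but manassantin replicate 2 (-0.18, adjusted p 0.0882 to 0.106). It was also lost with the replicate number as a block (-0.18, adjusted p = 0.0601), with quantile normalization (-0.13, adjusted p = 0.13), with the 18S covariate (-0.18, adjusted p = 0.093) and when every probe set was tested (-0.18, adjusted p = 0.0587). No glycolysis gene reached 2-fold in this comparison, and 7 in place of 12 were called with the 18S control as a covariate.

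Hsp90 and heat shock genes were called in both directions. HSP90AA1 and HSP90AB1, the inducible and the constitutive cytosolic Hsp90, were higher with manassantin by 0.43 ± 0.056 and 0.34 ± 0.057. HSP90AA1 read 12.83, 12.75 and 12.84 against 12.37, 12.38 and 12.37, and HSP90AB1 read 12.02, 12.05 and 12.02 against 11.66, 11.75 and 11.66, with no overlap in either. After centring, the difference of HSP90AB1 was 0.13 (adjusted p = 0.0963, limma). Larger differences were found for the small heat shock protein gene HSPB1 (1.03) and the Hsp40 co-chaperone DNAJA1 (0.69), higher with manassantin, and for HSPA13 (-1.03) and DNAJB9 (-0.81), members of the Hsp70 and Hsp40 families in the endoplasmic reticulum, higher with digoxin. Of 34 measured, 14 were called higher with manassantin and 11 higher with digoxin, and the median of 0.14 turned to -0.08 on centring, with 12 and 15 called. Genes of chaperone-mediated autophagy made up an overlapping list, of which 6 of 19 were called higher with manassantin and 4 higher with digoxin. That made 52.6% called, beside 50.2% of all genes, with a median of 0.06 (-0.15 centred, with 4 and 10 called). LAMP2, whose splice form is the lysosomal receptor of this pathway, read 10.31, 10.13 and 10.18 against 10.15, 10.10 and 9.96 and was not called (0.13 ± 0.077, 95% interval -0.05 to 0.31, adjusted p = 0.188, limma). Which splice forms its probe set reads is not known here, and the probe sets of HSPA8 carry several symbols, so that gene was not analysed here. ST13 (0.53), a co-chaperone of Hsp70, and RARA (-0.53), a nuclear receptor known to restrain this form of autophagy, moved in opposite directions.

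Macroautophagy genes, whose products build the autophagosome, stood higher with digoxin more often than with manassantin. Of 35 measured, 18 were called higher with digoxin and 6 higher with manassantin, with a median of -0.21. ATG12, which is joined to ATG5 in membrane expansion, read 8.83, 8.57 and 8.76 against 9.82, 9.97 and 9.92. GABARAPL1, a protein that coats the autophagosome, read 6.35, 6.19 and 6.23 against 7.31, 7.26 and 7.32. Both stood higher on every digoxin array. PIK3R4, a subunit of the lipid kinase that starts the process, was 1.63-fold higher with manassantin by its brightest probe set, but another of its probe sets was called in the opposite direction. WIPI1 (-0.60), UVRAG (-0.58) and CALCOCO2 (0.57) differed by less. Lysosomal genes were called in 44.7%, beside 50.2% of all genes: 14 of 47 were higher with digoxin and 7 higher with manassantin, with a median of -0.06. The cholesterol exporter NPC1 (-0.94), the proton pump subunits ATP6V1B2 (-0.85), ATP6V1D (-0.77) and ATP6V1C1 (-0.73) and the sialidase NEU1 (-0.74) were higher with digoxin, and the ceramidase gene ASAH1 (0.84) higher with manassantin.

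Genes of the amino acid response showed a split. ATF4 is the transcription factor that is made when eIF2 is phosphorylated and that induces amino acid synthesis, carriers and tRNA charging. ATF4 itself read 10.96, 10.94 and 10.90 with manassantin and 10.70, 10.83 and 10.80 with digoxin and fell short of the threshold (0.16 ± 0.06, adjusted p = 0.0578, limma), although 4 alternative settings called it. Of 37 measured targets, 17 were called higher with manassantin and 10 higher with digoxin, and the median of 0.16 turned to -0.06 on centring, with 15 and 16 called. XPOT, which exports tRNA from the nucleus, was 2.92-fold higher with manassantin, VLDLR 2.82-fold and the mitochondrial enzyme gene PCK2 2.55-fold. PPP1R15A and ATF3 (-1.58) were higher with digoxin; both are also known as stress-induced genes outside this pathway. Aminoacyl-tRNA synthetases, which load amino acids onto tRNA, were called higher with manassantin in 11 of 17 and higher with digoxin in 2, with a median of 0.37; on centred arrays the counts were 8 and 4. EPRS1 read 9.69, 9.63 and 9.80 against 8.11, 8.34 and 8.25, and CARS1 read 11.22, 11.26 and 11.24 against 10.14, 10.23 and 10.18. Both genes were lower on every digoxin array. WARS1 (0.78), NARS1 (0.69), TARS1 (0.57) and LARS1 (0.53) followed.

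Chaperones of the endoplasmic reticulum were called in 53.1%, beside 50.2% of all genes. Of 32 measured, 9 were called higher with manassantin and 8 higher with digoxin. The median of 0.07 turned to -0.14 on centring, with 7 and 15 called. DNAJC3 (-0.96) and DNAJB9 were higher with digoxin. WFS1 (0.91), a membrane protein of calcium balance, MANF (0.71) and EDEM2 (0.70) were higher with manassantin. No single direction described the list.

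Metabolic lists held large single differences. Of 30 enzymes around the citric acid cycle, 11 were called higher with manassantin and 7 higher with digoxin, and the median was 0.0 (-0.21 centred, with 7 and 14 called), so IDH1 stood apart from its list. IDH3A, the NAD-dependent isocitrate dehydrogenase of the mitochondrion, was higher with digoxin (-0.81), as was the pyruvate dehydrogenase component PDHX (-0.79), while PDK3 (0.79) and OGDH (0.75) were higher with manassantin. Heme synthesis and iron genes were called higher with manassantin in 10 of 18 and higher with digoxin in 2, with a median of 0.25; on centred arrays the counts were 7 and 5 and the median 0.03. ALAD, the second enzyme of heme synthesis, read 7.68, 7.59 and 7.68 against 5.79, 5.30 and 5.46. PPOX read 7.15, 7.11 and 7.12 against 5.88, 5.56 and 5.65, and ALAS1, the rate-limiting first enzyme, read 9.0, 9.10 and 9.08 against 8.03, 8.07 and 8.18. FECH (0.64), CPOX (0.62) and UROD (0.57), further enzymes of the same pathway, were higher with manassantin too, so the 6 largest differences of the list were all in heme synthesis itself.

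Lipid genes were called mostly higher with manassantin on the deposited scale. Their numbers were equal on centred arrays, where 2001 of all genes were called higher with manassantin and 6896 higher with digoxin. SCD, the desaturase that makes monounsaturated fatty acids, read 9.91, 9.50 and 9.59 with manassantin and 8.35, 7.90 and 7.92 with digoxin. Of 15 fatty acid synthesis genes 8 were called higher with manassantin and 1 higher with digoxin (median 0.26), and on centred arrays 3 and 3 (median 0.04). ME1 (0.61), ACLY (0.57) and SREBF1 (0.40) were higher with manassantin, the last not called after centring (0.18, adjusted p = 0.0523, limma). Of 18 cholesterol genes 9 were called higher with manassantin and 1 higher with digoxin (55.6% called, beside 50.2% of all genes). On centred arrays 7 and 7 were called, with the median moving from 0.21 to -0.01. That of all genes moved from -0.06 to -0.27. DHCR7 (1.02), MSMO1 (0.92), HSD17B7 (0.69) and NSDHL (0.63), all enzymes of the later steps, were the largest.

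Antioxidant genes of the NRF2 pathway were called higher with manassantin in 17 of 31 and higher with digoxin in 4, with a median of 0.22; on centred arrays the counts were 10 and 9 and the median 0.0056. CAT, which encodes catalase, read 9.95, 9.77 and 9.95 against 8.13, 7.94 and 7.99, and AKR1C3, an aldo-keto reductase, read 10.17, 10.09 and 10.07 against 8.26, 8.31 and 8.25. Both were over 3-fold lower on average with digoxin. AKR1C2 (0.96) and AKR1C1 (0.72) moved alike, but the AKR1C genes are near-identical paralogs whose probe sets may share signal. The small MAF factor MAFG, a partner of NRF2, was higher with digoxin (-0.78). TXNIP, which binds thioredoxin and restrains glucose uptake, had the largest difference of its list: it read 10.05, 9.98 and 9.97 with manassantin and 12.66, 12.60 and 12.56 with digoxin, -2.61 ± 0.059 (adjusted p = 7.11e-07, limma). Of the other 10 thioredoxin and glucose-sensing genes measured, HK2 was called higher with manassantin and KLF10 (-1.39) and SLC2A1 higher with digoxin, the last with the limits given above, and the median of the list was 0.02, turning to -0.19 on centring, with 8 called, and to -0.07 with quantile normalization.

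The respiratory chain moved by little. Of 62 subunits measured, 19 were called higher with digoxin and 4 higher with manassantin (37.1% against 50.2% of all genes), with differences from -0.49 to 0.54 and a median of -0.06, next to -0.06 for all genes. The complex I subunits NDUFS1 (-0.49), NDUFA6 (-0.29) and NDUFB11 (-0.30) were higher with digoxin and NDUFA8 (0.54) higher with manassantin. The count of called subunits fell from 23 to 15 without manassantin replicate 1, to 14 without manassantin replicate 3 and to 15 without digoxin replicate 3, and was 51 on centred arrays. Mitochondrial ribosomal proteins were called in 57.4%, beside 50.2% of all genes, 17 of 47 higher with manassantin and 10 higher with digoxin. Their median was 0.02 (-0.20 centred with 6 and 24 called), and MRPL34 (1.06) and MRPL42 (-0.72) led the list.

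Targets of the aryl hydrocarbon receptor, a sensor of planar aromatic compounds, split. CYP1A1, its classical target, was higher with digoxin, at 5.70, 6.09 and 6.03 with manassantin and 6.67, 6.67 and 6.87 with digoxin (-0.80 ± 0.11), and both groups stood above the DMSO mean of 5.25. CYP1B1 read 11.06, 11.04 and 11.13 against 10.85, 10.94 and 10.86 (0.19 ± 0.059), again above DMSO in both (10.56). Another probe set of CYP1B1 was called in the opposite direction, and the mean of its probe sets gave 0.09 (adjusted p = 0.195, limma). Its call was lost when manassantin replicate 1 or 3 or digoxin replicate 1 or 3 was left out (0.17 to 0.20, adjusted p 0.0552 to 0.0948), and centring turned it to -0.02. EREG (-0.84), an EGF-like ligand, and TIPARP (-0.80) were higher with digoxin and NQO1 (0.37) higher with manassantin, the last not after centring (0.15). In all, 4 of 11 measured genes were called higher with manassantin and 4 higher with digoxin, and on centred arrays 1 and 7.

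Called cell cycle genes lay mostly on the digoxin side. In the list of DNA replication and G1/S genes 23 of 51 were called higher with digoxin and 10 higher with manassantin (median -0.15). Among mitotic genes the counts were 28 of 57 and 7 (median -0.18), against 24.3% and 25.9% of all genes. The median distance of the replication list from DMSO was -0.03 with manassantin and 0.12 with digoxin. For the mitotic list these distances were -0.12 and 0.04, so there manassantin lay further from DMSO. CDC25A, the phosphatase that activates CDK2, read 7.59, 7.77 and 7.64 against 8.91, 8.99 and 9.0, and AURKB, the mitotic kinase, read 9.30, 9.37 and 9.25 against 10.23, 10.31 and 10.20. The replication kinase CDC7 (0.91) and the primase and polymerase genes PRIM1 (0.82), POLA2 (0.76) and POLA1 (0.72) ran the other way, higher with manassantin. UBE2C (-0.63), MKI67 (-0.60) and NDC80 (-0.56) were higher with digoxin by less than 2-fold, and ASPM (0.54) higher with manassantin. For MKI67, the proliferation marker Ki-67, another probe set was called in the opposite direction.

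Among cyclins D, CDK inhibitors and p53 targets the GADD45 genes stood out by size. GADD45B, which responds to stress and DNA damage, read 8.60, 8.62 and 8.59 against 10.55, 10.50 and 10.51, and its relative GADD45A read 10.36, 10.18 and 10.24 against 11.69, 11.72 and 11.73. Both were high on every digoxin array. The CDK inhibitor gene CDKN1A, a p53 target, differed by -0.80 and the nuclease gene AEN by -1.31, both higher with digoxin, while the p53 target TP53I3 (0.83) was higher with manassantin. MDM2 (1.0, dim) was also called higher with manassantin, but another of its probe sets was called in the opposite direction and their mean gave 0.05. In all, 12 of 27 genes of this list were called higher with digoxin and 8 higher with manassantin (median -0.17). MDA-MB-231 carries mutant p53. Of 60 DNA repair genes, 30 were called higher with manassantin and 12 higher with digoxin (median 0.20). The counts on centred arrays were 19 and 24 (median -0.02), beside 2001 and 6896 of all genes (median -0.27). ATM, the kinase that signals double-strand breaks, read 7.61, 7.30 and 7.52 against 5.48, 5.74 and 5.46, and NBN (1.15), which recruits it, and NTHL1 (1.0) were also higher with manassantin. XRCC3 (-1.29) and TDG (-1.0) were higher with digoxin.

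Nearly all called histone genes stood higher with digoxin. Of 45 measured, 29 were called higher with digoxin and 1 higher with manassantin, with a median of -0.43, but 29 of the 45 were dim, and 13 called members remained when dim genes were left out. H1-2, a linker histone, read 8.65, 8.98 and 8.93 against 10.22, 10.47 and 10.47, and H2BC9 read 6.85, 6.92 and 7.02 against 8.01, 8.20 and 8.16. H2BC21, H1-4 (-1.80) and H3C2 (-1.57) were dim. Most of these genes are near-identical copies that are expressed in S phase and end in a stem-loop instead of a poly(A) tail, and their probe sets may share signal.

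BCL2 family genes, which set the threshold of apoptosis, were called higher with digoxin in 9 of 21 and higher with manassantin in 6 (median -0.22). BNIP3 and BNIP3L (0.76) were the largest and higher with manassantin. The survival gene MCL1 read 10.46, 10.55 and 10.55 against 11.19, 11.19 and 11.14, higher with digoxin (-0.66 ± 0.058), and the death genes BIK (0.64) and BCL2L11 (-0.65, dim) ran in opposite directions.

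The TGF-beta and BMP list held large differences of either sign. ID1 led, and SMAD6 (1.41, dim), which like ID1 is a known BMP target, was also higher with manassantin, although another of its probe sets was called in the opposite direction. FST, which traps activin, read 9.0, 9.27 and 9.25 against 10.97, 10.92 and 10.91, and TGFB2 (-1.08), a ligand, and ACVR2A (-1.14), an activin receptor, were higher with digoxin as well, as was the activin subunit gene INHBA (-1.0, dim). The list as a whole had 12 of 38 called higher with manassantin and 11 higher with digoxin (60.5% called, beside 50.2% of all genes). Its median of -0.02 was close to that of all genes, and on centred arrays 6 and 19 were called. Among EGF family genes, ERBB2 (0.70) was higher with manassantin and EGFR (-0.65) and its ligand HBEGF (-0.64) higher with digoxin. Of 17 measured, 5 were called in the first direction and 6 in the second (64.7% called, beside 50.2% of all genes).

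Matrix genes were led by HAS2 on the digoxin side and by COL6A3, a chain of collagen VI, on the other, at 8.30, 8.05 and 8.07 with manassantin and 6.59, 6.10 and 6.28 with digoxin. Of 44 measured, 16 were called higher with manassantin and 10 higher with digoxin (median 0.03, -0.19 centred with 9 and 20 called). That made 59.1% called, beside 50.2% of all genes. LAMA5 (0.86), COL13A1 (0.70) and CDH11 (0.70) were higher with manassantin, and THBS1 (-0.62) higher with digoxin. In the plasminogen system both activator genes were higher with manassantin: PLAU, urokinase, read 10.16, 10.30 and 10.30 against 9.20, 9.12 and 9.06, and PLAT, tissue plasminogen activator, read 10.08, 9.88 and 10.02 against 9.02, 8.79 and 8.81. TIMP3, an inhibitor of matrix proteases, read 10.46, 10.24 and 10.43 against 9.15, 9.02 and 9.08. None of these 3 genes had overlapping groups. MMP1, interstitial collagenase, read 8.29, 8.76 and 8.50 against 8.82, 8.94 and 9.11, a small gap higher with digoxin (-0.44 ± 0.13, adjusted p = 0.0213, limma). That call was lost without manassantin replicate 1 (-0.32, adjusted p = 0.0556), without manassantin replicate 3 (-0.43, adjusted p = 0.0605) and without digoxin replicate 3 (-0.36, adjusted p = 0.0656). Over the list 5 of 30 were called higher with manassantin and 6 higher with digoxin, so that 36.7% were called, beside 50.2% of all genes, and 26 were called on centred arrays.

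Integrin subunits, the receptors for matrix, were called in 38.9%, 5 of 18 higher with manassantin and 2 higher with digoxin. ITGB4, the partner of ITGA6 in hemidesmosomes, read 8.70, 8.80 and 8.68 against 7.59, 7.44 and 7.36, and ITGA2 (0.82) and ITGA6 (0.46) were higher with manassantin too. The 7 called integrin genes became 12 on centred arrays (3 and 9) and 4 with dim genes left out. Cytoskeletal genes were called in 42.4%, 10 of 33 higher with manassantin and 4 higher with digoxin, with a median of 0.01 that turned to -0.21 on centring, where 6 and 20 were called. TPM2, a tropomyosin, read 6.77, 6.42 and 6.42 against 5.28, 5.32 and 5.19. VCL (0.83), vinculin, was called by its brightest probe set, but another of its probe sets was called in the opposite direction and their mean gave -0.03. TUBA1A (0.54), MAP4 (0.46) and TUBB2B (0.98, dim) were higher with manassantin.

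Ribosome biogenesis factors were called higher with digoxin in 30 of 58 and higher with manassantin in 9 (median -0.20). DDX10, a helicase of the small subunit pathway, read 9.50, 9.61 and 9.55 against 10.99, 11 and 11.02, PNO1 read 9.10, 9.05 and 9.15 against 10.35, 10.53 and 10.51, and RRP12 differed by -1.27. These genes were higher on every digoxin array. Cytosolic ribosomal proteins were called in only 11.5% (5 of 52 higher with digoxin and 1 higher with manassantin), with differences from -0.26 to 0.27. Their median of -0.03 was close to that of all genes. On centred arrays 49 were called, while 3 were called with quantile normalization, without manassantin replicate 3 or without digoxin replicate 2, 11 with all 12 arrays and 19 with a trended robust prior. RPS9 (-0.26), RPL35A (-0.22) and RPL14 (0.22) were the largest of those called. RPL14 was at 0.0 (adjusted p = 0.953, limma) on centred arrays, and RPL35A at -0.08 (adjusted p = 0.262) by the mean of its probe sets.

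Translation factors were called in both directions, 13 of 43 higher with manassantin and 16 higher with digoxin, with a median of -0.03 (0.02 with quantile normalization). EIF2B3 (1.32), a subunit of the exchange factor of eIF2, EIF5 (1.17), which triggers GTP hydrolysis at the start codon, and the eIF2 subunits EIF2S3 (0.89) and EIF2S2 (0.72) were higher with manassantin, and EIF1B (-1.09) higher with digoxin. Splicing regulators were split too, 15 of 39 and 12 (median 0.03, -0.19 centred with 8 and 20 called). SRSF6 read 9.86, 9.83 and 9.79 against 8.45, 8.48 and 8.39, higher with manassantin, and the kinases of SR proteins CLK4 (-1.31) and CLK1 (-0.94) were higher with digoxin. Proteasome subunits had 10 of 37 called higher with manassantin and 11 higher with digoxin (median 0.02, -0.19 centred with 4 and 20 called). That made 56.8% called, beside 50.2% of all genes. Within this list PSMB9 (1.05) and PSMB8 (0.81), the interferon-inducible subunits of the immunoproteasome, were the largest and higher with manassantin. PSME3 (-0.75), an activator, was higher with digoxin.

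A small set of genes had manassantin and digoxin on opposite sides of the vehicle. There were 64 called genes whose means lay at least 0.3 from DMSO in opposite directions, 49 with manassantin above and 15 with it below. These genes were picked by their values, so no test is given. TXNIP had the largest distance of manassantin from DMSO among them, -0.97, beside 1.64 with digoxin, and its DMSO arrays read 11.06, 10.94 and 10.91. ALAS1 was 0.59 and -0.38 from DMSO, PLAT 0.46 and -0.65, NDRG1 0.41 and -1.24, SPAG4 0.51 and -0.45, and TIMP3 0.40 and -0.90. In NDRG1 and TIMP3 the manassantin gap to DMSO was much smaller than the digoxin gap, and a DMSO array of TIMP3 (10.32, 9.84 and 9.79) came within the manassantin range. CYP1A1, CYP1B1 and MMP1 form another pattern, above DMSO with both compounds: MMP1 stood 0.78 above with manassantin and 1.22 above with digoxin.

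**Figure D5:**
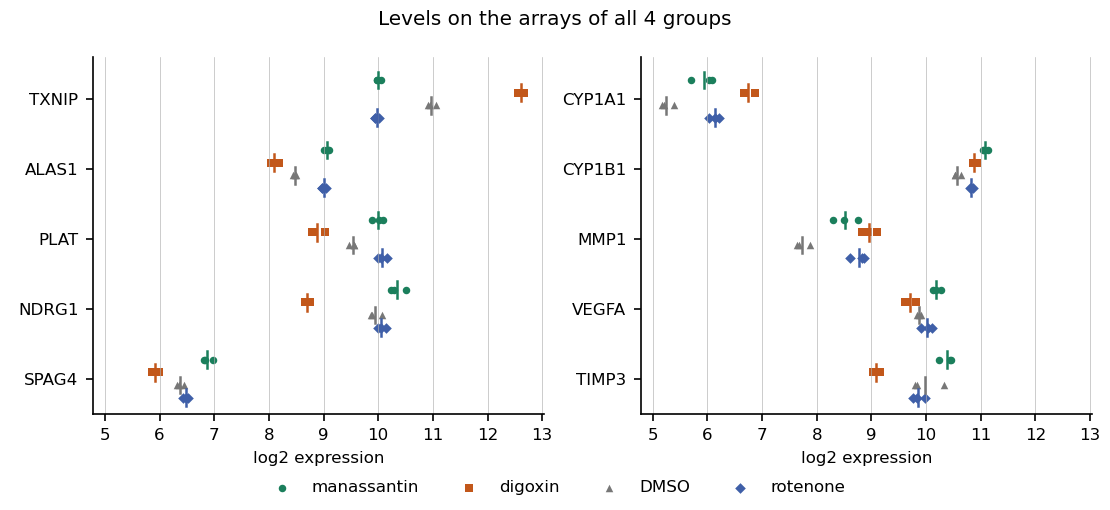
Log2 expression (horizontal axes) of 10 genes on the 3 arrays of each of the 4 groups; points are arrays and short bars group means. TXNIP, ALAS1, PLAT, NDRG1 and SPAG4 have the manassantin and digoxin points on either side of DMSO, while CYP1A1, CYP1B1 and MMP1 lie above DMSO with both compounds.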

How the data were processed

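RNA of 12 samples of MDA-MB-231 cells was hybridized to Affymetrix arrays, 3 per group. Groups and replicate numbers were read from the sample titles. The deposited values are log2 probe set summaries on a common scale set by the authors, and the sources used here do not name the background correction or normalization. The log2 base was taken from their range, 1.655 to 13.75. The table held 22277 probe sets, 62 of them controls. By the platform annotation 19064 probe sets carry 1 symbol, 1043 several and 2108 none; only the 19064 were used to name genes. Of these, 19052 matched a current gene record, 12 found no match and stayed as annotated, and 0 needed a new symbol. The brightest probe set over all arrays stood for each gene. Of the 11963 genes, 4310 had several probe sets.

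The 6 arrays were fitted with limma 3.58.1 in R 4.3.3 (lmFit and eBayes with a term for group, leaving 4 residual degrees of freedom, to which the prior added 3.73). P-values were adjusted by Benjamini-Hochberg over all genes, and no filter on dim genes was used. Control probe sets were compared by an exact permutation test over arrays. Fitting was tested on simulated data.

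The comparison, its members and the 39 gene lists were chosen with earlier results of these data known. Named genes are the 15 called genes with the largest difference in each direction, up to 6 called members of a described list with the largest difference, its central members, and a fixed set of 28 genes, of which 23 were measured. Genes outside this rule are named as chosen by their values. Several lists share members. As alternatives the fit was repeated with replicate as a block, after quantile normalization or median centring, without dim genes, on the average of probe sets or on each of them, with weights per array, with a robust prior that follows a trend, on all 12 arrays, with the 18S control as a covariate, and without each array in turn. Promoters are RefSeq's, 300 bases on GRCh38.p14, matched by symbol. Python 3.11.15 and matplotlib 3.10.9 drew the figures. Precision is limited by having 3 arrays per group.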

Additional observations from a re-analysis of the deposited data

How the results depend on the processing

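The count of 6004 called genes stayed within 1.5 times of this value under each of the 16 alternatives, from 5128 to 5711 with 1 array left out. The totals tested differ, so this range of counts is not a range of shares. It ran from 5024 of 7178 genes with dim genes left out to 8928 of 19064 probe sets. Centring the arrays on their medians called 8897 of 11963 genes. Median centring moved the split to 2001 genes higher with manassantin and 6896 higher with digoxin, and past 2-fold to 352 and 345. Testing every probe set, 19064 in place of 11963 genes, gave 4621 higher with digoxin and 341 past 2-fold. Of 39 list medians, 14 changed sign on centring and 3 with quantile normalization. The 14 centred medians all lay above the centred median of all genes, -0.27. The 250 named genes kept direction and side of the threshold in 3900 of 3973 comparisons. With the direction kept, the call was lost in 64 and gained in 4, all of ATF4. The 5 reversals were CYP1B1 (-0.02) and FXYD5 (-0.21) on centred arrays, and HNRNPH3 (-0.34), RPL38 (0.07) and VCL (-0.03) by the mean of probe sets. Among these FXYD5 also gained a call (adjusted p = 0.0185, limma). The cause was not tested.

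Same-numbered arrays of the groups deviated together at 0.051, 0.143 and 0.057, while 5 of the 6 other pairs were below 0 and manassantin replicate 1 correlated most with digoxin replicate 3 (0.054). The criterion for pairing, every pair over 0.1, was not met, and no label gives the number a meaning, so whether the arrays are paired is not settled. With the number as a block, 6032 genes were called, 5687 of them also called without it, and 2 named genes lost their call, SLC2A1 (-0.18, adjusted p = 0.0601, limma) and ITGA1 (0.29, adjusted p = 0.0507).

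Each group has 3 arrays, with no dose, no stated cultures and no read count behind a value. Dim genes lie near the low end of the arrays, where differences tend to be understated, and made up 24.3% of genes past 2-fold higher with manassantin and 9.3% of those higher with digoxin.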

Other observations

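Some probe sets are annotated to several genes and belong to no gene above, so their values are given without assigning them. A probe set annotated to both HSPA1A and HSPA1B, the inducible Hsp70 pair, read 9.95, 9.87 and 9.83 with manassantin and 8.03, 7.87 and 8.02 with digoxin, a difference of 1.91 ± 0.071 (SE; adjusted p = 1.78e-06, limma), and a further one differed by 1.01. Those annotated to HSPA8, the chaperone of chaperone-mediated autophagy, together with small nucleolar RNAs of its introns, differed by 1.23, 1.21 and 0.81, all higher with manassantin. Their DMSO means were 12.73, 12.55 and 12.67, beside manassantin means of 12.61, 12.30 and 12.57. Probe sets annotated to both the clock gene NR1D1 and THRA, which overlap on opposite strands, went the other way at -2.30 and -1.87. Another of this pair differed by 0.02 (adjusted p = 0.822, limma). BTN3A2 and BTN3A3, butyrophilins of immune signalling, shared a probe set that differed by 1.80. Of 1043 such probe sets, 470 were called, 229 higher with manassantin and 241 higher with digoxin. Among the 19064 probe sets with 1 symbol, 8928 were called, 4307 higher with manassantin and 4621 higher with digoxin. The share of called genes was 50.2%.

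The arrays of a group were not alike in their position, in both groups. Among the 602 genes at least 2-fold higher with manassantin, replicate 1 was the highest of its group in 343 with manassantin (57.0%) and in 307 with digoxin (51.0%), and replicate 2 the lowest in 335 (55.6%) and in 300 (49.8%). Over all genes replicate 1 was highest in 33.2% and 34.0%, and replicate 2 lowest in 31.5% and 33.7%. Among the 172 genes at least 2-fold higher with digoxin, digoxin replicate 1 was the lowest in 101 (58.7%) and digoxin replicate 3 the highest in 98 (57.0%), while no manassantin array was highest in more than 36.6%. The median distances from the group mean behind these shares were between -0.0575 and 0.0613 on the log2 scale.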
